A study of Mus musculus with 12 samples.

Results

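Untreated bone marrow-derived macrophages (BMDMs) carrying the R150X allele of Gpnmb were compared with untreated control BMDMs, 3 libraries against 3 of the 12 libraries in the series. The libraries were chosen by their labels, and 15338 of the 54532 genes listed had enough counts to be tested. The series asked how GPNMB bears on the formation of foam cells, the lipid-laden macrophages of the arterial wall. BMDMs are macrophages that develop when marrow cells are cultured, and RNA was sequenced from the whole culture. The control group is called WT here and the mutant group R150X. The labels gave both genotypes the same strain history, DBA/2 crossed with C57BL/6 and backcrossed to C57BL/6, and the treatment "Non". The remaining 6 libraries, 3 of each genotype, came from BMDMs given oxidised low-density lipoprotein (OxLDL), which entered the same statistical model and served to ask whether a difference recurred or changed. No age, sex, number of mice, culture time or batch was stated. Whether the 3 libraries of a group are separate mice or cultures was not stated either, so every p-value measures only the spread between these libraries, which may be technical.

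GPNMB is a transmembrane glycoprotein of endosomes, lysosomes and the cell surface, and its gene is a target of the MiT/TFE transcription factors that switch on lysosomal genes. It accumulates in macrophages that load lipid or fuse into multinucleate cells, and its ectodomain can be shed by ADAM proteases. R150X replaces an arginine codon with a stop. The same allele is carried by DBA/2J mice, in which it contributes to pigmentary glaucoma. A cross with that strain can leave DBA/2 sequence around the gene and on other chromosomes. The effect of such sequence, linked or not, and that of the stop codon cannot be told apart here.

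The codon lies in exon 4 of 11 at chr6:49045385-49045387 on the plus strand of GRCm38, after 149 of the 574 codons of the annotated coding sequence. It is printed in capitals within its exon to show where the message of the mutant is interrupted, in the reference sequence of chr6:49045355-49045417 and not from the libraries.
Gpnmb codon 150: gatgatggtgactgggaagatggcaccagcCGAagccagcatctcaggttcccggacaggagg

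Gpnmb itself (ENSMUSG00000029816, chr6:49036546-49070929) separated the genotypes in every library. Values are in CPM, the counts of a gene relative to the TMM-scaled library size, given for replicates 1, 2 and 3 in that order. The WT libraries held 5374, 5311 and 5305 CPM and the R150X libraries 363, 382 and 411 CPM, a difference of -3.79 on the log2 scale (SE 0.042, adjusted p = 1.03e-23) by the quasi-likelihood test of edgeR, adjusted by Benjamini and Hochberg. Every R150X library lay far below every WT library, and 7.23% of the WT level remained. Per kilobase of exon, Gpnmb ranked 23 among 13181 protein-coding genes in WT at 818 FPKM and 728 in R150X at 59.1 FPKM. Its partners and its regulators moved less. Of 13 genes for GPNMB partners and MiT/TFE factors, 4 rose (7 with the transcript-length trend described below removed) and 0 fell, with a median log2 fold change of 0.119 against 0.0101 over all genes tested, of which 18.1% were called higher and 14.8% lower. Tfeb, a MiT/TFE factor, rose from 32.9 ± 2.55 to 49.1 ± 6.59 CPM (SD, n = 3, as in every such pair). Rragd, a Rag GTPase that helps to control TFEB, rose by 0.37 on the log2 scale, and Adam17, a sheddase, by 0.28. Cd44, an adhesion receptor that can pair with GPNMB and the most abundant of the members not called, stood at 327 ± 1.98 and 353 ± 13.6 CPM.

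A gene was called when its adjusted p was under 0.05 over all genes tested. By that rule 5056 genes, 33.0% of those tested, differed between untreated genotypes, 2780 higher in R150X (18.1%) and 2276 lower (14.8%). Most differences were small. The median absolute log2 fold change of the called genes was 0.369, and 179 genes rose and 305 fell at least 2-fold. The share called grew with the level, from 10.4% of the 1784 genes under 1 CPM to 54.5% of the 2100 genes at 100 CPM or more. Direction went with level too. From 1 to 10 CPM 347 genes rose and 625 fell, but at 100 CPM or more 803 rose and 341 fell. The gene lists below were not matched for level, so their counts beside the shares of all genes tested include this trend. Of the called genes 55.0% were higher in R150X, but 36.1% were with scaling by library total alone, where 1849 rose and 3271 fell. Libraries of the groups did not overlap for 7068 genes, 46.1% of those tested. A lack of overlap in a gene named below stands against that share. Most such genes were named for a small adjusted p or a large change, which favours a lack of overlap.

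**Figure D1:**
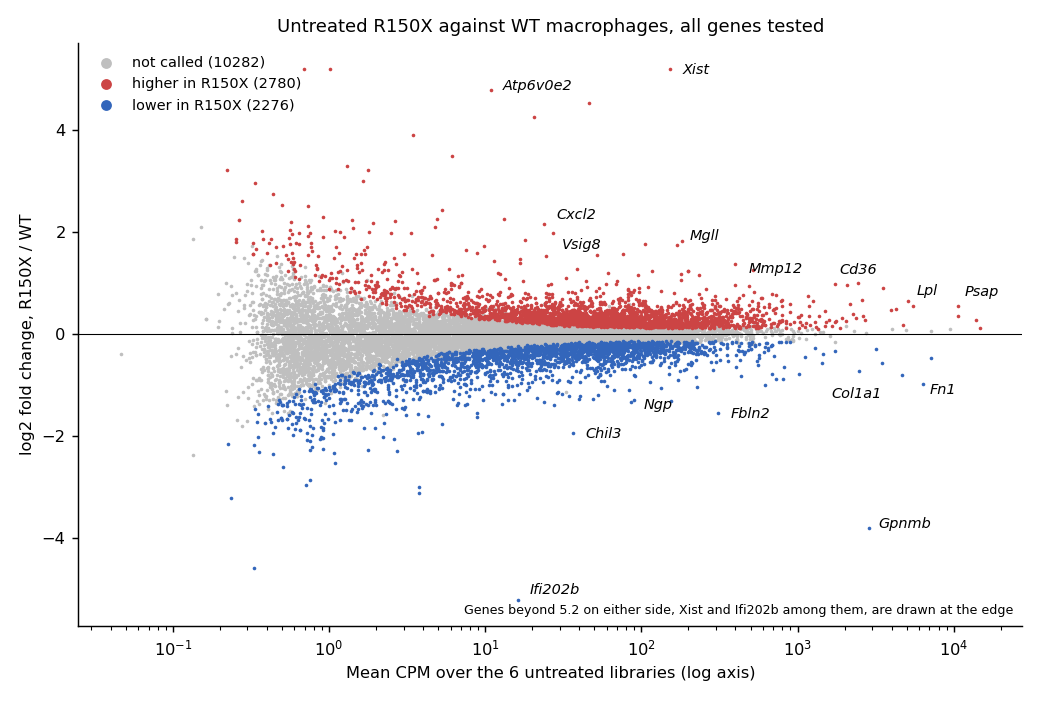
Log2 fold change of R150X against WT in untreated cells (vertical axis) plotted against the mean level in CPM (log horizontal axis) for each of the 15338 genes tested. Blue and red points are the genes called lower and higher, grey points were not called, and Gpnmb lies at -3.79, below the other genes of similar level.

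Library totals ran from 15182912 to 18222868 counts in these 6 libraries. R150X replicate 1 stood apart from its group. Its counts differed from those of R150X replicates 2 and 3 by a chi-square of 9.611 and 10.5 per degree of freedom, against 2.371 to 3.132 among the WT pairs and 3.011 between R150X replicates 2 and 3. The fold changes also followed transcript length. When genes averaging 5 CPM or more were ranked by length, the eighth with the shortest transcripts (57 to 1607 bases) had a median log2 fold change of 0.238, with 654 genes higher and 59 lower. The eighth with the longest transcripts (6494 to 123179 bases) had a median of -0.177, with 63 higher and 579 lower. Without R150X replicate 1 these medians were 0.158 and -0.111, and between OxLDL-treated genotypes they were 0.0489 and -0.0281. The cause of this trend was not tested. Values after a smooth trend over transcript length was subtracted from each library are given beside many of the groups below, and values without replicate 1 where that moved a count by more than 1.5 times.

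**Figure D2:**
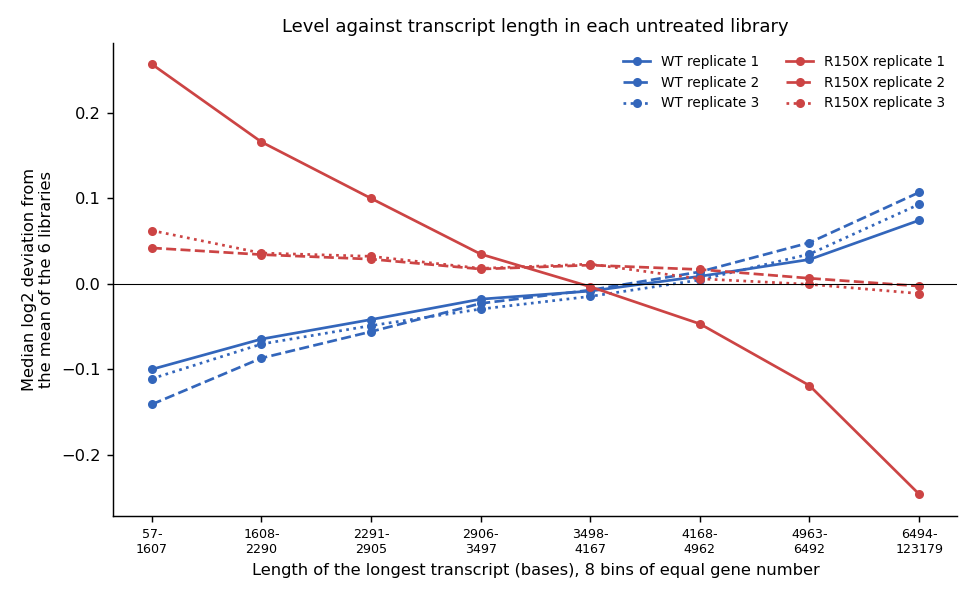
Median log2 deviation of each untreated library from the mean of the 6 untreated libraries (vertical axis) for genes grouped into 8 bins by transcript length (horizontal axis, short to long). Lines are libraries coloured by genotype: R150X replicate 1 runs from 0.257 at the short end to -0.246 at the long end, and the WT libraries run the other way.

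Sex markers differed too. Xist, which silences an X chromosome in female cells, was at 2.75, 1.74 and 0.5904 CPM in the WT libraries and 228, 334 and 349 CPM in the R150X libraries. The Y-linked genes Ddx3y, Eif2s3y, Kdm5d and Uty were present in all 6 libraries and fell in R150X, Ddx3y from 86.1 ± 0.8897 to 56.1 ± 4.18 CPM and Uty from 34.2 ± 1.44 to 19.6 ± 0.613 CPM. Across these 4 genes the mean level in R150X was 56.3% to 73.1% of that in WT. Each R150X library thus held Xist and Y-linked RNA together, and whether it mixed cells of both sexes was not tested. Sex markers moved with genotype, so an effect of sex and one of genotype cannot be told apart in these libraries. With the genes of chromosomes X and Y left out, 4877 genes were called, 2681 higher and 2196 lower.

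Macrophage identity genes were abundant in every library, at a summed 23660 to 23790 CPM in WT and 25990 to 27040 CPM in R150X. Stromal markers, described below, were abundant too, at 27400 to 27520 CPM in WT and 16550 to 18030 CPM in R150X. The share of stromal cells in the cultures was not tested. Per kilobase, the lysozyme gene Lyz2 stood at 10630.4 FPKM in WT and 11627 FPKM in R150X, and Adgre1, which encodes F4/80, at 842 and 853 FPKM. The scavenger protein gene Cd68 was at 571 and 688 FPKM and the M-CSF receptor Csf1r at 207 and 244 FPKM. Of 20 macrophage identity genes 10 rose and 6 fell. Those that rose included the co-receptor Cd14, from 324, 336 and 327 CPM to 612, 521 and 551 CPM, the inhibitory receptor Sirpa (log2 fold change 0.33) and the lineage factor Spi1 (0.45). Those that fell were led by monocyte genes. Ly6c2, a surface marker of inflammatory monocytes, was at 45.4, 51.1 and 46.9 CPM in WT and 23.1, 19.6 and 19.9 CPM in R150X, with no overlap. Ccr2, which draws monocytes out of the marrow, fell by 0.90 on the log2 scale and the fractalkine receptor Cx3cr1 by 0.79. In whole cultures, fewer cells of a type and less RNA per cell cannot be told apart.

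Named protein-coding genes were ranked by fold change if they were called, reached a mean of 10 CPM and did not overlap between genotypes. The highest were led by a proton pump subunit, chemokines and signalling genes. Atp6v0e2, a subunit of the V-ATPase membrane sector, was at 0.377, 1.16 and 0.698 CPM in WT and 22.996, 20.1 and 19.6 CPM in R150X, a difference of 4.79 on the log2 scale (SE 0.20, adjusted p = 2.00e-13). It lies 0.514 Mb before Gpnmb on chromosome 6. Cxcl3 (2.27 on the log2 scale) and Cxcl2 (2.16), chemokines for neutrophils, came next. Vsig8, an immunoglobulin-domain gene, was at 10.1, 9.92 and 12.8 CPM and 47.7, 39.9 and 42.1 CPM, and Slamf8, a myeloid SLAM receptor, at 26.8, 24.9 and 27.4 CPM and 83.8, 74.1 and 76.5 CPM. Both genes lie on chromosome 1. The cyclin-dependent kinase inhibitor Cdkn1c (1.86), the lipase Mgll (1.75), the fusion protein Dcstamp (1.66), the G protein regulator Rgs1 (1.57) and the adaptor Lat, which rose from 4.37 ± 1.22 to 13.3 ± 1.03 CPM, were also among the 15 highest genes of at least 10 CPM, together with Rps27a and Tpm3-rs7. The last pair share reads with near-identical copies and are uncertain, and Rps27a varied from 236 to 359 CPM among R150X libraries.

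At the other end stood Ifi202b, an interferon-inducible gene known to vary between inbred strains. WT libraries held 32.7, 31.1 and 32.96 CPM and all 3 R150X libraries 0 counts, which is at least 181-fold lower against a floor of 3 counts per library. Ifi202b belongs to a family of near-identical copies, and whether the genotypes differ in strain background at this locus was not tested. Fam71a, also on chromosome 1, showed the opposite pattern, with 1 count in a WT library, 0 in the other WT libraries and 2.02 ± 0.409 CPM in R150X. The next largest falls by the same rule were Gpnmb itself, the chitinase-like gene Chil3 (-1.93), the paired receptor Sirpb1a (-1.62), the matrix protein Fbln2 (-1.54) and the sortilin-family receptor Sorcs2 (-1.54). Chil3 and Sirpb1a have close copies, which makes their counts uncertain. Ahr, a ligand-activated receptor whose alleles differ between C57BL/6 and DBA/2, fell by 0.56, while Nnt, which varies among C57BL/6 substrains, stood at 0.748 ± 0.00853 and 0.851 ± 0.413 CPM and was not called.

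**Figure D3:**
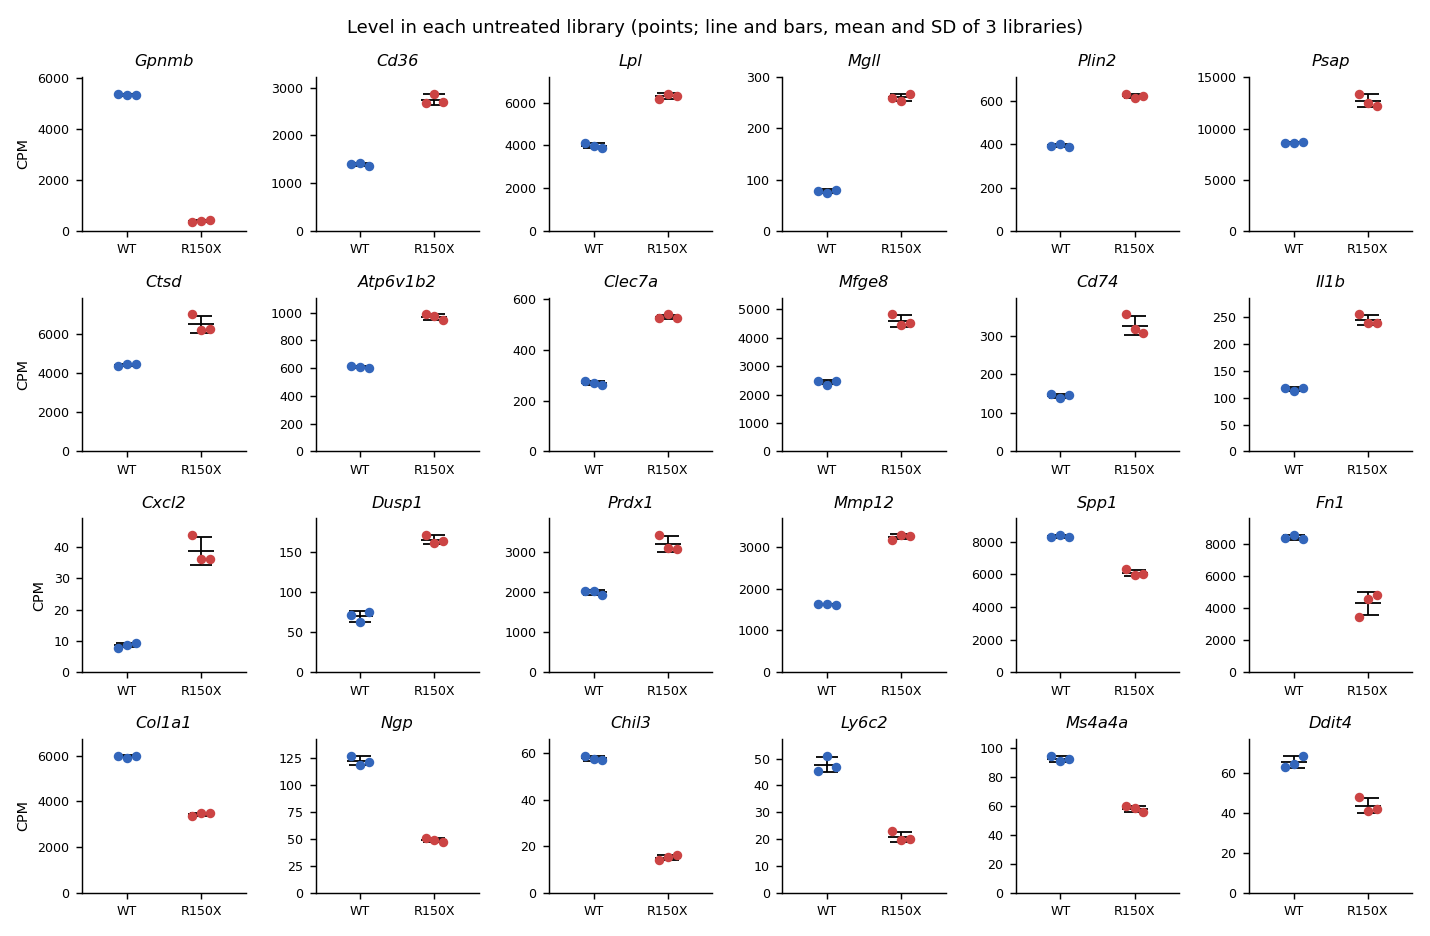
Level in CPM of 24 named genes in each untreated library, with a panel per gene and each vertical axis starting at 0. Points are libraries and bars the mean and SD of 3 libraries; Gpnmb falls to 385 CPM in R150X, while Cd36, Lpl and Mgll lie higher in each R150X library than in any WT library.

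Genes for storing and releasing lipid were mostly higher in R150X, while receptors for taking up modified lipoprotein moved both ways. Macrophages bring modified lipoprotein in through scavenger receptors, store its cholesterol and fatty acids in droplets coated by perilipins, and release them again through lipases. Cd36, a scavenger receptor for oxidised lipoprotein and fatty acids, was at 1400.1, 1424 and 1364 CPM in WT and 2667, 2874 and 2698 CPM in R150X, a difference of 0.98 on the log2 scale (SE 0.047, adjusted p = 2.51e-12). The lowest R150X library lay far above the highest WT library. Of the 13 receptors for modified lipoprotein tested, 4 rose and 4 fell. Marco, which binds particles and bacteria, rose from 881 ± 50.4 to 1124 ± 132 CPM. The very low-density lipoprotein receptor Vldlr fell from 29.4 ± 1.45 to 18.4 ± 0.478 CPM, and Stab1, which clears modified proteins, from 805 ± 9.698 to 601 ± 50.7 CPM.

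Among 17 lipid droplet coat and lipase genes 12 rose and 1 fell, with a median log2 fold change of 0.355. Lpl, the secreted lipoprotein lipase, was at 4107, 3944 and 3890.3 CPM in WT and 6149.9, 6419 and 6299 CPM in R150X. Plin2, the main droplet coat of macrophages, was at 392, 403 and 389 CPM and 634, 614 and 624 CPM, and Mgll, which cleaves monoacylglycerol, at 78.3, 73.7 and 80.7 CPM and 260.2, 254 and 268 CPM. All 3 genes were higher in every R150X library, with log2 fold changes of 0.66, 0.66 and 1.75. Dgat2, which makes triacylglycerol, was the member that fell, from 8.48 ± 0.229 to 5.23 ± 0.638 CPM, and its isozyme Dgat1 stood at 29.1 ± 1.97 and 31.5 ± 1.101 CPM and was not called. Adipocyte markers moved with this group. Their summed level was 50.51 to 51.57 CPM in WT and 70.57 to 78.32 CPM in R150X, 5 of 6 tested rose, and Lep was at 0 in all libraries. Among them Pparg, a factor that macrophages also use, rose from 31.7 ± 0.9504 to 49.6 ± 3.604 CPM, and the adipokine gene Adipoq from 0.482 ± 0.112 to 2.301 ± 0.261 CPM. The part of adipocyte RNA in the lipid genes was not tested.

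Cholesterol handling moved in both directions. Of 14 liver X receptor (LXR) targets and efflux genes, 7 rose (4 with scaling by library total alone) and 3 fell. Abcg1, which exports cholesterol to lipoprotein particles, rose from 264 ± 7.03 to 329.5 ± 13.3 CPM, and Nr1h3, which encodes LXR alpha, from 75.1 ± 3.59 to 98.4 ± 8.93 CPM. The phospholipid transfer protein Pltp fell from 457 ± 3.19 to 369 ± 2.75 CPM and Mylip, which degrades the LDL receptor, by 0.30 on the log2 scale. Apoe, an abundant apolipoprotein, was at 9006, 8761 and 9693 CPM and 11372, 8897 and 9149 CPM. R150X replicate 1 was the high library, the other 2 lay within the WT range, and Apoe was not called. Of 23 cholesterol synthesis genes 12 rose and 0 fell, with 7 rising when WT replicate 2 was left out. They included Insig1 (0.43), a sterol-regulated brake on this pathway, and the enzymes Sqle (0.41) and Mvd (0.41). Fatty acid oxidation genes rose in 13 and fell in 0 of 23 cases, with Acaa1a at 0.40 and Hadh at 0.42. That count was 8 without WT replicate 2 and 6 with the length trend removed. Of 16 fatty acid synthesis genes 6 rose, among them the acyl-CoA synthetase Acsl1 (0.54), and 2 fell, Fads3 and the NADPH source Me1 (-0.63).

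Lysosomal genes were more often higher than lower in R150X. Lysosomes degrade what macrophages engulf, and a proton pump, the V-ATPase, acidifies them. Of 15 cathepsins and cystatins 10 rose and 1 fell (median log2 fold change 0.259). The protease gene Ctsb was at 9466, 9405 and 9357 CPM in WT and 12180.2, 11967 and 11995 CPM in R150X, and Ctsd at 4356, 4440.4 and 4459 CPM and 6994, 6214 and 6264 CPM. No library of either gene overlapped between genotypes, as for 46.1% of all genes tested, and R150X replicate 1 was the highest for Ctsd. Ctsc, which activates granule proteases, fell from 537 ± 8.705 to 474 ± 12.7 CPM. Among 32 glycosidases, lipases and other hydrolases 17 rose and 3 fell, with a median log2 fold change of 0.137. With scaling by library total alone 12 rose and 4 fell (median 0.0614). With the length trend removed 15 rose and 3 fell (median 0.0638). Psap, the precursor of the saposins that present sphingolipids to hydrolases, had the largest rise in CPM of any named gene, from 8637, 8587 and 8689 CPM to 13423, 12529.7 and 12248 CPM, a difference of 0.56 on the log2 scale (SE 0.03, adjusted p = 1.80e-11). Gm2a, the ganglioside activator, and Gusb, the beta-glucuronidase, had log2 fold changes of 0.58 and 0.56. Acp5, tartrate-resistant acid phosphatase, fell from 92.5 ± 3.14 to 67.9 ± 3.898 CPM, as did Ppt1 (-0.22).

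Of 20 lysosomal membrane proteins 16 rose and 0 fell. With the length trend removed 11 rose, and with scaling by library total alone 11 rose and 1 fell. Tpcn2, a lysosomal cation channel, rose from 111 ± 1.35 to 152 ± 6.63 CPM and Mfsd12, a cysteine importer, from 193 ± 4.57 to 296 ± 6.77 CPM. Npc2, the soluble cholesterol carrier counted in that list, rose from 755 ± 14.2 to 1024 ± 69.4 CPM. All 8 V1 subunits of the V-ATPase, which hydrolyse ATP, rose, with log2 fold changes from 0.294 to 0.669. Atp6v1b2 was at 615, 612 and 604 CPM and 989, 976 and 947 CPM. Of 11 V0 and accessory subunits, which conduct the protons, 10 rose, among them Atp6v0a1 (0.54) and Tcirg1 (0.51). Atp6v0a2 stood at 70.4 ± 1.52 and 70.2 ± 4.15 CPM and was not called. With the length trend removed 8 V1 and 9 V0 subunits rose. Autophagy genes were called at about the share of all genes tested (33.3%), with 5 of 18 higher and 1 lower, or 2 and 4 with scaling by library total alone. The receptor gene Sqstm1 rose from 464 ± 8.15 to 590.3 ± 34.2 CPM.

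The promoters of the lysosomal genes are shown because MiT/TFE factors bind the hexamer CACGTG, which reads the same on both strands. In RefSeq promoters of GRCm38.p6, taken from 250 bases before to 50 after the start, it occurred in 27.7% of 83 lysosomal genes matched by symbol, in 11.4% of 10862 tested genes and in 7.15% of all 32851 promoters. A gene was counted if any of its promoters held the hexamer, whereas the share of all promoters is per promoter. The hexamer was present in 32.7% of the 55 lysosomal genes that rose and 17.9% of the 28 that did not. A match is a description of the letters and not evidence of binding. The hexamer stands in capitals in 3 of the rising genes: Ctsd, Gla (alpha-galactosidase A) and Clcn7 (a lysosomal chloride-proton exchanger). The windows are chr7:142387895-142387950 (minus strand), chrX:134601169-134601224 (minus) and chr17:25133351-25133390 (plus).
Ctsd: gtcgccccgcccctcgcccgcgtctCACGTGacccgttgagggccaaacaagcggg
Gla: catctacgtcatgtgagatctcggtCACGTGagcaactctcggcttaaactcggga
Clcn7: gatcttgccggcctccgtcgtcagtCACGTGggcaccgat

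Genes described in lipid-associated macrophages, the TREM2-dependent state of fat tissue and plaques, rose in 17 and fell in 1 of 20 cases, with a median log2 fold change of 0.562 (0.338 with the length trend removed). The list overlaps the lysosomal and lipid lists. Clec7a, the beta-glucan receptor dectin-1, was at 276, 270.1 and 262 CPM in WT and 524, 539 and 526 CPM in R150X; its annotation as a polymorphic pseudogene makes it uncertain. Anxa1, a phospholipid-binding protein that dampens inflammation, rose from 873 ± 12.3 to 1465 ± 64.9 CPM. The member that fell was Spp1, the secreted phosphoprotein osteopontin, at 8308, 8414 and 8269 CPM and 6296, 5945 and 6002 CPM, which is a lower level in each R150X library. Of 9 annexins 7 rose and 0 fell, including Anxa4 from 219.9 ± 4.69 to 369 ± 6.47 CPM and Anxa2 (0.49), while Anxa6 stood at 287 ± 8.86 and 294 ± 7.64 CPM.

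**Figure D4:**
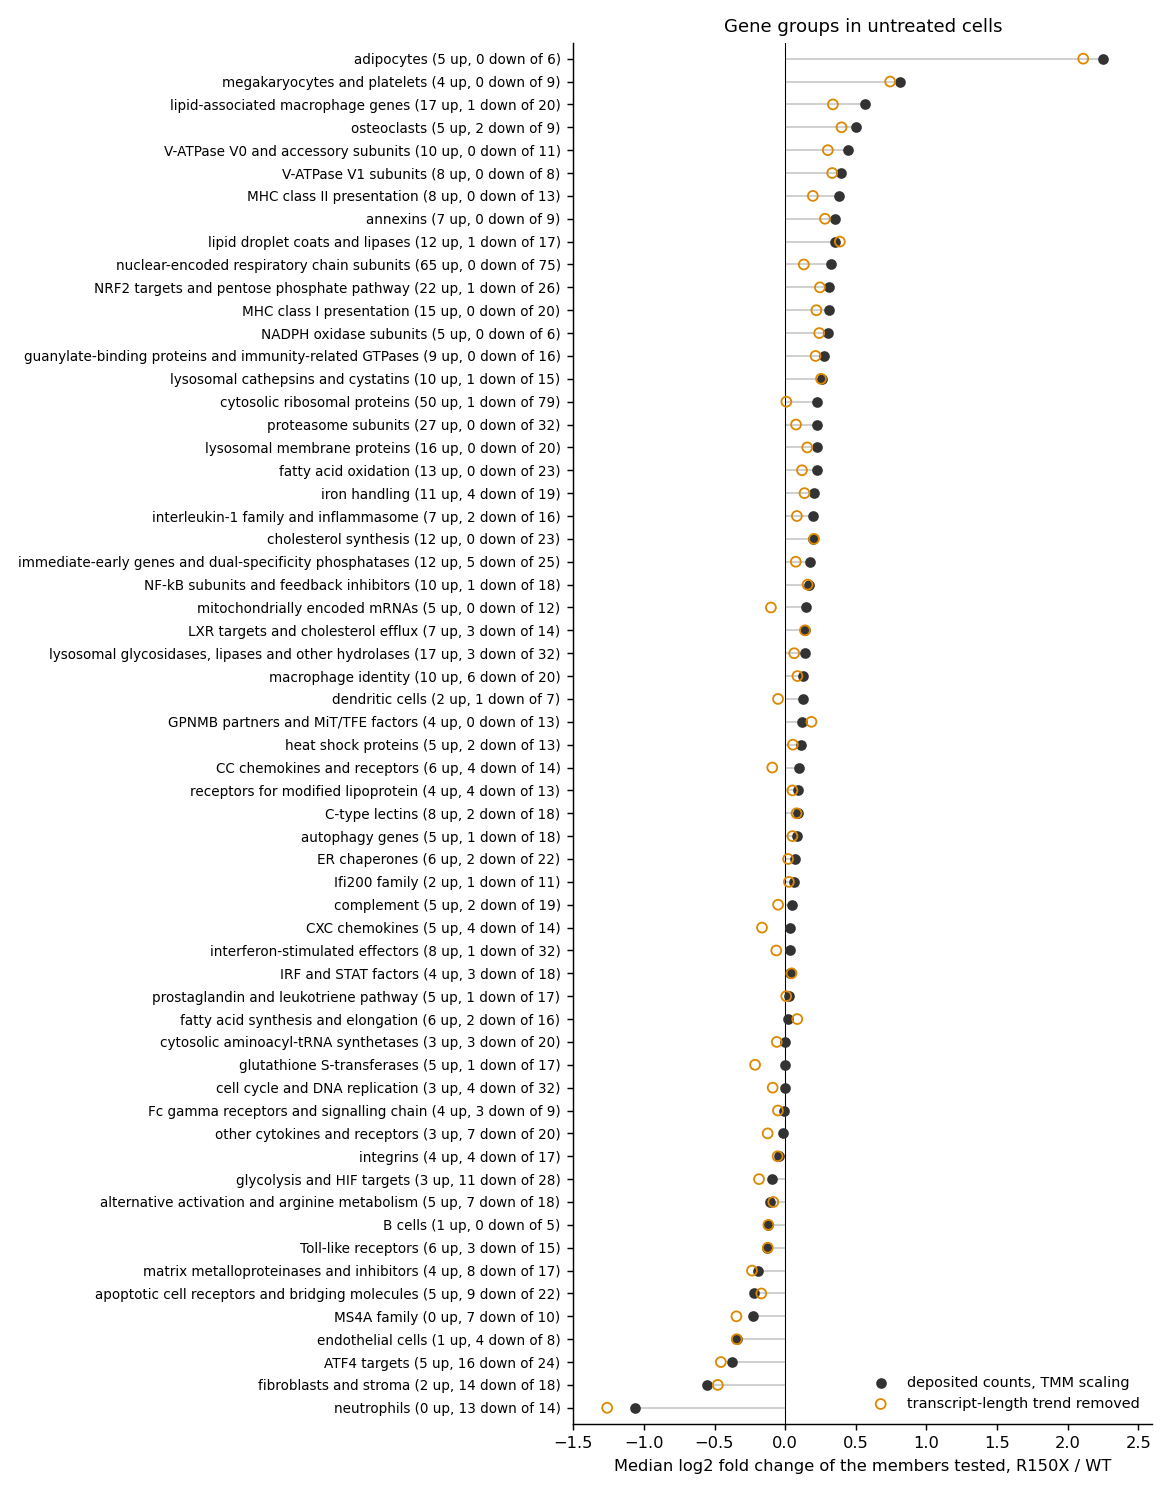
Median log2 fold change of R150X against WT in untreated cells (horizontal axis) for each gene list with at least 5 genes tested, apart from the sex markers. Filled points use the counts as deposited and open circles the counts after the length trend was removed; of these lists the neutrophil and stromal ones lie lowest, at -1.06 and -0.553, and the ribosomal list moves from 0.226 to 0.00835.

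Genes for clearing dying cells moved apart. Among 22 receptors and bridging molecules 5 rose (3 with scaling by library total alone) and 9 fell. Mfge8, which bridges phosphatidylserine to integrins, was at 2470.3, 2354 and 2497 CPM in WT and 4831, 4437 and 4525 CPM in R150X, and its integrin partner Itgb3 rose from 46.2 ± 0.916 to 91.2 ± 8.799 CPM. Each R150X library lay above each WT library for both genes. The receptor kinase Axl fell from 256 ± 3.78 to 201 ± 6.61 CPM and Thbs1, a matrix protein that also bridges cells, from 3074 ± 51.4 to 1872 ± 147 CPM. Integrins rose in 4 and fell in 4 of 17 cases (5 and 3 with the length trend removed). Itgax, which encodes CD11c, was at 602, 613 and 617 CPM and 873, 1006 and 1012 CPM, with no overlap, and Itgb2, its partner chain, rose by 0.45 on the log2 scale. Itga6, a laminin receptor chain, fell from 238 ± 4.89 to 158 ± 12.7 CPM.

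Antioxidant genes controlled by NRF2, with the pentose phosphate pathway that supplies NADPH, rose in 22 and fell in 1 of 26 cases. The median log2 fold change was 0.311, and 21 rose with the length trend removed. Prdx1, a peroxidase, was at 2044, 2029 and 1935 CPM in WT and 3436, 3105 and 3074 CPM in R150X, a difference of 0.68 on the log2 scale (SE 0.055, adjusted p = 7.01e-09). Srxn1, which repairs oxidised peroxiredoxins, was at 158, 149.96 and 158 CPM and 242, 238 and 248 CPM, and Pgd, a pentose phosphate dehydrogenase, at 434, 431 and 429 CPM and 643, 582 and 609 CPM. None of these overlapped, as for 46.1% of all genes tested. Me1 fell, and Hmox1, the haem oxygenase, stood at 597 ± 11.4 and 610.2 ± 33.5 CPM and was not called. Of 6 NADPH oxidase subunits, which make superoxide, 5 rose, with Cyba from 389 ± 5.37 to 583 ± 91.004 CPM and Ncf4 from 108 ± 1.43 to 140.4 ± 3.52 CPM. Glutathione S-transferases rose in 5 and fell in 1 of 17 cases, or 3 and 3 with the length trend removed, and the 35.3% called lay near the 33.0% of all genes tested.

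NRF2 with small MAF proteins binds the sequence TGACNNNGC, searched on both strands, where N is any base. It occurred in 40.9% of the 22 genes of the NRF2 list matched to a promoter and in 40.0% of the 20 that rose. Among tested genes 17.0% held it. A gene was counted if any of its promoters held the sequence. Counted per promoter, 12.4% of all promoters held it, which is a different unit. Windows from 3 members that rose, read on the gene's strand, show the sequence in capitals, here in its reverse-complement form. They are Prdx1 at chr4:116685441-116685499 (plus), G6pdx, the first enzyme of the pentose phosphate pathway, at chrX:74428904-74428962 (minus), and Txnrd1, thioredoxin reductase, at chr10:82859089-82859147 (plus).
Prdx1: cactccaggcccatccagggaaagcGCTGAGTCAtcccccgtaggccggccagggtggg
G6pdx: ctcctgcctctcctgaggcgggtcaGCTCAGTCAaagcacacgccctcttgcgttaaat
Txnrd1: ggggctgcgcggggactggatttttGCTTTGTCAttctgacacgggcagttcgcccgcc

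Iron handling genes rose in 11 and fell in 4 of 19 cases. The transferrin receptor Tfrc was at 187, 197 and 186 CPM in WT and 258, 276 and 270.4 CPM in R150X. The haem transporter Slc48a1 rose by 0.41 on the log2 scale, the ferrireductase Steap3 by 0.55 and the ferritin chains Fth1 and Ftl1 by 0.27 and 0.48. Lcn2, which binds bacterial iron carriers and is also a neutrophil granule protein, fell from 139 ± 5.19 to 95.97 ± 5.56 CPM.

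Targets of ATF4, the transcription factor of the integrated stress response, mostly fell in untreated cells: 16 of 24 were lower and 5 higher, with a median log2 fold change of -0.375. Between OxLDL-treated genotypes 12 of the 24 were higher and 3 lower, with a median of 0.176. The difference between the 2 genotype effects was called for 15 of them, against 8.32% of all genes tested. Aldh1l2, a mitochondrial folate enzyme, was at 39.2, 38.4 and 41.6 CPM in WT and 15.8, 17.8 and 19.999 CPM in R150X. Aldh18a1, which makes proline precursors, fell from 67.04 ± 2.58 to 44.1 ± 2.19 CPM, and the mTORC1 inhibitor Ddit4 from 65.2 ± 2.89 to 43.4 ± 3.68 CPM. Atf4 itself rose from 193 ± 6.71 to 233 ± 14.04 CPM, with the hormone gene Gdf15 (0.58) and the transporter chain Slc3a2 (0.31). Glycolysis and HIF target genes fell in 11 and rose in 3 of 28 cases. Bnip3, a mitophagy receptor, fell from 50.8 ± 2.63 to 31.2 ± 1.25 CPM, the ER oxidase Ero1l from 120.2 ± 2.13 to 79.4 ± 2.72 CPM and Pfkfb3, which drives phosphofructokinase, from 196 ± 1.39 to 147 ± 12.3 CPM. Hk3, a myeloid hexokinase, rose from 313 ± 7.395 to 434 ± 15.7 CPM. ER chaperones rose in 6 and fell in 2 of 22 cases (36.4% called, near the share of all genes tested), but 2 rose without R150X replicate 1, 3 without WT replicate 2, 2 without WT replicate 3 and 1 with scaling by library total alone or the length trend removed. Pdia4, a disulphide isomerase, was among those that fell, from 171 ± 6.84 to 126 ± 5.48 CPM. Heat shock genes rose in 5 of 13 cases, or 2 without R150X replicate 1 or WT replicate 2 or with the length trend removed, and 3 without WT replicate 3, and Hspa1b fell by 0.45 on the log2 scale.

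Antigen presentation genes were higher in R150X. Class II molecules display peptides from engulfed material and are few in resting BMDMs. Of 13 class II presentation genes 8 rose and 0 fell (7 and 1 with the length trend removed, when the median log2 fold change went from 0.384 to 0.196). The invariant chain gene Cd74 was at 149, 139 and 146 CPM in WT and 356, 318 and 306 CPM in R150X, a difference of 1.17 on the log2 scale (SE 0.06, adjusted p = 6.25e-12). The class II chain H2-Aa was at 28.1, 30.9 and 28.2 CPM in WT and 64.3, 55.9 and 59.4 CPM in R150X. H2-Eb1, another chain, was at 20.2, 21.3 and 20.8 CPM in WT and 49.6, 42.95 and 42.03 CPM in R150X. For all 3 genes the lowest R150X library was above the highest WT library, and 46.1% of all genes tested did not overlap in either direction. Counts of H2 genes may be shared among close copies and depend on strain. The summed level of dendritic cell markers was 358.3 to 371.3 CPM in WT and 364.6 to 423.6 CPM in R150X, and that of B cell markers 171.4 to 177.3 and 208.1 to 216.9 CPM. Of 7 dendritic cell markers tested 2 rose and 1 fell, of 5 B cell markers 1 rose, and their part in the class II levels was not tested. Class I presentation genes rose in 15 and fell in 0 of 20 cases, with H2-D1 from 1725 ± 22.7 to 2621 ± 222 CPM, H2-T23 at a log2 fold change of 0.47 and H2-K1 at 0.36.

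Inflammatory genes moved in both directions. Of 14 CXC chemokine genes 5 rose and 4 fell (7 with the length trend removed). Cxcl2 was at 7.87, 8.703 and 9.45 CPM in WT and 43.9, 36.1 and 36.3 CPM in R150X, and Cxcl3 at 4.42, 4.22 and 4.94 CPM and 24.7, 20.2 and 20.8 CPM. In contrast Cxcl5, another neutrophil attractant, was at 220.1, 224 and 215 CPM and 139.7, 131 and 129.6 CPM, and the receptor Cxcr4 fell from 67.96 ± 3.78 to 41.7 ± 0.484 CPM. None of these 4 genes overlapped between groups, as for 46.1% of all genes tested, and Cxcl2 and Cxcl3 were ranked above on that condition. Among 14 CC chemokines and receptors, with short transcripts, 6 rose and 4 fell. With the length trend removed 5 rose and 6 fell, and the median log2 fold change went from 0.0993 to -0.0912. The macrophage chemokines Ccl6, Ccl9 and Ccl3 had log2 fold changes of 1.24, 0.69 and 0.57, and the monocyte attractant Ccl7 had -0.57.

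Interleukin-1 family and inflammasome genes rose in 7 and fell in 2 of 16 cases. Il1b, the secreted cytokine, was at 119, 112 and 117 CPM in WT and 255, 239 and 239.8 CPM in R150X. Casp1, which cleaves its precursor, rose from 57.1 ± 2.401 to 77.6 ± 2.54 CPM and Gsdmd, the pore through which it leaves, from 77.99 ± 3.68 to 96.9 ± 0.963 CPM. Its receptor chains Il1r1 and Il1rap fell by 0.85 and 0.42 on the log2 scale. Of 20 other cytokines and receptors 3 rose and 7 fell: Tnf rose from 85.6 ± 1.89 to 107 ± 3.51 CPM, and Lif, Il4ra and Csf1 fell by 0.88, 0.56 and 0.27. NF-kB subunits and feedback inhibitors rose in 10 of 18 cases (5 with scaling by library total alone) and fell in 1, with Nfkbid at 0.70 and Nfkbib at 0.55. Nfkbia stood at 178 ± 1.64 and 176 ± 14.7 CPM and was not called.

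Immediate-early genes and dual-specificity phosphatases, which respond within minutes to signalling, rose in 12 and fell in 5 of 25 cases (3 fell without R150X replicate 3). Dusp1, which switches off MAP kinases, was at 71.9, 62.2 and 74.8 CPM in WT and 172, 162 and 164 CPM in R150X. Fos rose from 79.2 ± 2.55 to 122 ± 2.54 CPM and Atf3 from 255 ± 3.49 to 376 ± 17.2 CPM, whereas Fosl1 (-0.64), Fosl2 (-0.37) and Klf4 (-0.58) fell. Toll-like receptor genes rose in 6 of 15 cases (3 with the length trend removed) and fell in 3, or 5 with the length trend removed and 1 without R150X replicate 1, WT replicate 1 or WT replicate 2. Tlr2, a receptor for bacterial lipopeptides, fell from 127 ± 3.61 to 103 ± 3.71 CPM, and Unc93b1, which carries endosomal receptors, rose from 701 ± 16.6 to 803 ± 3.58 CPM.

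Interferon-stimulated effectors were called in 9 of 32 cases (28.1%, against 33.0% of all genes tested), 8 higher and 1 lower, and 4 and 4 with scaling by library total alone. Ifi27l2a rose by 0.72 on the log2 scale and Cmpk2 by 0.45. Guanylate-binding proteins and immunity-related GTPases, which attack vacuoles of microbes, rose in 9 and fell in 0 of 16 cases, with Gbp2 from 130.2 ± 2.36 to 202 ± 6.92 CPM. Among IRF and STAT factors and their inhibitors 4 of 18 rose, including Irf1 (0.52) and Irf8 (0.45), and 3 fell, led by the cytokine-signal inhibitor Socs3, which was at 188, 185 and 199 CPM and 119.8, 104 and 109 CPM. The share called, 38.9%, was near that of all genes tested.

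Surface receptors of myeloid cells included the MS4A family, multi-pass membrane proteins, of which 0 of 10 rose and 7 fell. The count was 4 without WT replicate 1 or 3 and 3 without WT replicate 2. Ms4a4a was at 94.7, 90.9 and 92.1 CPM in WT and 59.6, 58.6 and 55.5 CPM in R150X. Of 18 C-type lectins 8 rose and 2 fell (4 fell without R150X replicate 1, 5 with scaling by library total alone and 6 with the length trend removed). Clec4e and Clec4d, receptors for microbial glycolipids, rose from 217 ± 6.48 to 348 ± 8.98 CPM and from 239.9 ± 9.65 to 353 ± 20.1 CPM. Among 9 Fc gamma receptor genes and their signalling chain 4 rose (2 with the length trend removed) and 3 fell. The activating Fcgr3 rose from 328 ± 9.14 to 433 ± 10.8 CPM, while the inhibitory Fcgr2b fell from 256 ± 4.28 to 213 ± 1.68 CPM and the high-affinity Fcgr1 from 239 ± 1.93 to 195 ± 5.89 CPM. Complement genes were called in 36.8% of cases, near the share of all genes tested, and rose in 5 of 19, with the anaphylatoxin receptor C5ar1 from 206 ± 3.96 to 294 ± 9.88 CPM, and fell in 2, a count that was 6 with the length trend removed, 4 with scaling by library total alone and 0 or 1 without any of WT replicates 1, 2 and 3 or R150X replicates 1 and 3.

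Markers of alternative activation and arginine metabolism rose in 5 and fell in 7 of 18 cases. Acod1, which makes itaconate, was at 334, 334 and 328 CPM in WT and 631, 643 and 649.9 CPM in R150X. Nos2, the inducible nitric oxide synthase, was at 26.9, 26.4 and 23.6 CPM and 10.6, 13.7 and 13.4 CPM, the opposite direction. Cd200r1, an inhibitory receptor, rose from 76.8 ± 2.62 to 102 ± 2.37 CPM, and Il4ra, the interleukin-4 receptor chain, fell from 250.3 ± 3.0998 to 170.2 ± 9.58 CPM. Retnla and Chil4 were at 0 counts in all libraries.

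Matrix and stromal genes fell. Fibroblast and stroma markers fell in 14 and rose in 2 of 18 cases, and their summed level was 27400 to 27520 CPM in WT and 16550 to 18030 CPM in R150X. Col1a1, the main chain of type I collagen, was at 5997, 5911 and 5993 CPM in WT and 3349, 3478 and 3469.8 CPM in R150X, a difference of -0.80 on the log2 scale (SE 0.045, adjusted p = 3.55e-11). Fn1, fibronectin, which macrophages also make, was at 8365, 8578 and 8313 CPM and 3447, 4599.9 and 4829 CPM, and R150X replicate 1 was the lowest library. Col1a2, Col3a1, Fbn1, Hspg2, Col12a1 and Lox, all genes of collagen fibres or their matrix, had log2 fold changes from -0.99 to -0.56. The median transcript of the stromal list was 5067 bases long against 3158 for all genes tested. With the length trend removed, 14 still fell and the median went from -0.553 to -0.477. The receptor Pdgfra of stromal cells stood at 77.2 ± 2.91 and 82.1 ± 5.89 CPM and was not called, and Cxcl12 rose from 767 ± 7.71 to 917 ± 14.998 CPM. Vcan, a proteoglycan, was at 215, 224 and 219.5 CPM and 69.5, 98.03 and 96.9 CPM.

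Proteases that cut matrix divided. Of 17 matrix metalloproteinases and inhibitors 4 rose and 8 fell. Mmp12, the macrophage elastase, was at 1623, 1637 and 1606 CPM in WT and 3179, 3289 and 3264 CPM in R150X, and Mmp9, a gelatinase, at 118, 114 and 123 CPM and 265, 279 and 291 CPM. Both were higher in each R150X library. Plaur, the urokinase receptor, rose from 57.7 ± 3.33 to 105 ± 9.46 CPM, and Timp3, a metalloproteinase inhibitor, fell from 355 ± 7.99 to 242 ± 22.6 CPM. Osteoclast genes, of multinucleate bone-resorbing relatives of macrophages, rose in 5 and fell in 2 of 9 cases (1 without WT replicates 1 or 3 or R150X replicate 1). Their summed level was 873.2 to 876.5 CPM in WT and 1195 to 1256 CPM in R150X, with Dcstamp at 3.88, 3.69 and 3.33 CPM and 11.8, 12.1 and 10.5 CPM. The sum includes Mmp9 and Itgb3, which rose. Acp5, the acid phosphatase given above among the hydrolases, is also a member of this list and fell.

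Neutrophil granule genes fell in 13 of 14 cases, with a median log2 fold change of -1.06 (-1.26 with the length trend removed). Their summed level was 572.8 to 604.7 CPM in WT and 290.1 to 318.0 CPM in R150X. Ngp was at 127, 119 and 121 CPM in WT and 50.9, 48.8 and 47.2 CPM in R150X, S100a9 at 130.04, 129 and 121 CPM and 53.9, 49.7 and 52.6 CPM, and Ltf, lactoferrin, at 82.99, 78.5 and 80.5 CPM and 41.5, 39.9 and 38.8 CPM. No library overlapped for these genes, as for 46.1% of all genes tested. Megakaryocyte and platelet markers, at a summed 36.18 to 40.47 CPM in WT and 52.48 to 59.52 CPM in R150X, rose in 4 and fell in 0 of 9 cases, or 2 without WT replicate 2 or R150X replicate 2. The platelet chemokine Ppbp was at 1.78, 2.004 and 1.61 CPM and 8.73, 7.27 and 7.31 CPM. Endothelial markers fell in 4 and rose in 1 of 8 cases, with Cdh5 from 144 ± 2.51 to 105 ± 5.303 CPM and Vwf from 32.3 ± 1.59 to 47.1 ± 7.402 CPM. Erythroid markers summed to 1.994 to 2.374 CPM in WT and 2.649 to 4.533 CPM in R150X, with Hba-a2 and Slc4a1 among those at 0, and of 3 mast cell markers tested 0 were called. T and NK cell markers summed to 180.7 to 183.4 CPM in WT and 248.8 to 268.5 CPM in R150X; of the 4 tested only Il7r, also expressed by myeloid cells, rose, from 166 ± 3.65 to 246 ± 9.14 CPM.

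The genes of the ribosome, the proteasome and the respiratory chain have short transcripts, and their counts moved with replicate 1 and with the length trend. Of 79 cytosolic ribosomal proteins 50 rose and 1 fell, but 32 rose without R150X replicate 1, 33 with scaling by library total alone, and 14 rose and 12 fell with the length trend removed. The nuclear-encoded respiratory chain subunits rose in 65 of 75 cases, or 45 without replicate 1, 25 with the length trend removed and 13 with both. Proteasome subunits rose in 27 of 32 cases, or 17 without replicate 1, 13 with scaling by library total alone, 9 with the length trend removed and 6 with both. Of 12 mitochondrially encoded mRNAs 5 rose, with 1 to 3 when any library was left out and 0 with the length trend removed. Psmb6, a catalytic proteasome subunit, was at 86.9, 81.2 and 81.5 CPM in WT and 140.4, 121 and 117 CPM in R150X, and its log2 fold change went from 0.60 to 0.33 with the trend removed. Sdhb, of complex II, was at 88.5, 83.7 and 87.4 CPM and 124, 106 and 108 CPM, with 0.38 and 0.15. R150X replicate 1 was the highest library for both.

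Genes near Gpnmb on chromosome 6 were examined because DBA/2 sequence may remain there. Within 2.5 Mb of the gene 24 of 50 tested genes were called (48.0%), and from 2.5 to 5 Mb 7 of 26 (26.9%). By comparison, 33.3% of the tested genes of chromosome 6 and 33.0% of all genes tested were called. The share was 35.2% from 5 to 10 Mb, 42.2% from 10 to 20 Mb, 33.2% from 20 to 50 Mb and 28.9% beyond, so it did not fall steadily with distance. Of the 24 nearest called genes 8 were higher and 16 lower in R150X. Gm43980, a gene model with no assigned name, was at 10.3, 12.3 and 10.3 CPM in WT and 3.199, 5.47 and 4.01 CPM in R150X and fell. Rarres2, a secreted chemoattractant 0.4825 Mb before Gpnmb, was at 3.29, 2.53 and 4.35 CPM in WT and 9.13, 7.55 and 8.19 CPM in R150X. Npy, a neuropeptide gene 0.7724 Mb after it, was at 7.06, 6.804 and 7.84 CPM and 19.1, 15.4 and 15.99 CPM, and Atp6v0e2 is given above. In contrast to most called genes of this stretch these 3 rose, and in each the R150X libraries were above the WT libraries. Each was also called in the same direction between OxLDL-treated genotypes.

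Fewer genes differed between the OxLDL-treated genotypes, which are separate libraries with the same labels of genotype. There 1996 genes were called (13.0%), and the difference between the 2 genotype effects was called for 1276 genes (8.32%). Of the 2780 genes that rose in untreated R150X cells, 577 also rose with OxLDL, which is 20.8% of the untreated list and 61.7% of the 935 that rose with OxLDL. Of the 2276 that fell, 667 also fell, 29.3% of that list and 62.9% of the 1061. In opposite directions were 56 of the genes that rose and 41 of those that fell. Among the larger changes, 80 of 179 genes that rose at least 2-fold rose again and 12 fell, while 124 of 305 that fell at least 2-fold fell again and 1 rose.

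**Figure D5:**
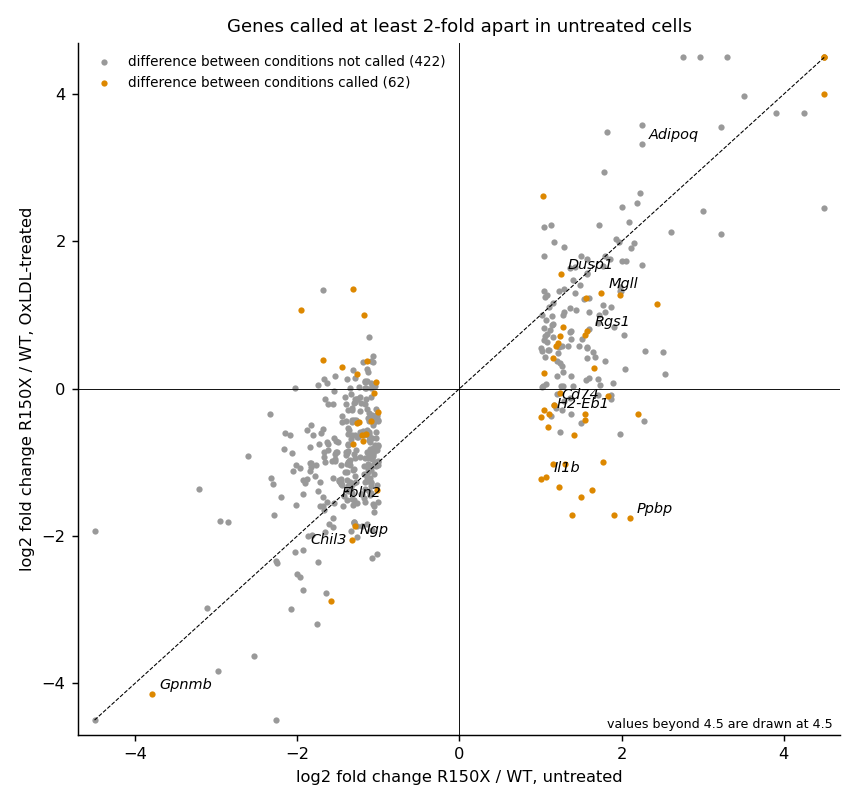
Log2 fold change of R150X against WT with OxLDL (vertical axis) against that in untreated cells (horizontal axis) for the 484 genes called with at least 2-fold change in untreated cells. Orange points are the 62 genes whose genotype effects differed by the interaction test and grey points the other 422; values beyond 4.5 are drawn at 4.5.

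Atp6v0e2, near Gpnmb, had a larger log2 fold change with OxLDL, at 6.54 against 4.79 (interaction adjusted p = 0.03). Fbln2 was at -1.55 with OxLDL against -1.54 without, and Cdkn1c at 1.76 against 1.86. The interaction was not called for either gene, which does not show that their differences were equal. Smaller differences with OxLDL were found for Cd36, at 0.32 against 0.98 (interaction adjusted p = 1.58e-06), Mmp12, at 0.39 against 1.00 (2.71e-06), and Mfge8, at 0.40 against 0.91 (2.71e-06). Prdx1 went from 0.68 to -0.028 and Ccl9 from 0.69 to -0.032, and neither was called with OxLDL. The stearoyl-CoA desaturase Scd1 went the other way, from 0.31 in untreated cells to 1.52 with OxLDL (interaction adjusted p = 7.79e-08). Xist and the Y-linked genes separated the OxLDL-treated genotypes as well, so sex markers accompany genotype in both comparisons.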

How the data were processed

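RNA from 12 BMDM libraries was sequenced, and the 6 untreated ones carry the comparison. The authors deposited raw counts per Ensembl gene; per the submitters' processing notes FastQC, HISAT2, featureCounts and DESeq2 were used with mm10 and GRCm38, without versions. For the annotation release and the strand setting, nothing was stated in the sources used here. Overlapping or antisense genes could therefore not be separated, and near-identical copies are uncertain. Per the labels' protocols, total RNA came from an RNeasy Plus Mini kit and the libraries from a Hieff NGS Ultima Dual-mode kit.

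Symbols, coordinates and lengths came from GENCODE M21, which matched 54495 identifiers; the 37 others held 0.00357% of counts. Totals of all libraries ran from 14838969 to 18222868, and 3 counts in a library, the floor, equal 0.158 to 0.209 CPM. Floors cover counting error only. Genes were filtered with filterByExpr by group, libraries scaled by TMM, and all 12 libraries entered 1 edgeR model (4.0.16, R 4.3.3) with a term for each group and its quasi-likelihood test, adjusted by Benjamini-Hochberg over 15338 genes. The common biological coefficient of variation was 0.0608. FPKM is CPM per kilobase of exon. No pair of replicates agreed within sampling noise by chi-square of counts, so all 12 were kept. On simulated counts for 15338 genes of this comparison, 59.7% of genes changed 1.5-fold, 88.1% changed 2-fold and 93.9% changed 4-fold were recovered, and 7.47% of calls were false. Only 67, 67 and 66 genes were changed by these folds, with no length trend and no outlying library. The rates therefore need not hold for the data.

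Named genes were Gpnmb, the 15 highest and 15 lowest fold changes among called protein-coding genes whose libraries did not overlap and whose higher mean reached 10 CPM, the 12 largest CPM rises and falls, and, in each of 65 lists, the called members of smallest adjusted p with the most abundant member not called. Macrophage and sex markers, neighbours of Gpnmb and genes at the floor were added. Some genes that this rule names are not reported here. Promoter members were chosen for a motif after their calls were known. The members and lists were chosen with earlier results of these data known. Clec6a, Mnda, Pydc3, Pydc4 and H2-Ea had no match by symbol. Alternatives were DESeq2 1.42.0 size factors and test, a stricter or no count filter, library-total or upper-quartile scaling, the 6 libraries alone, a replicate block and each library left out; removal of the X and Y chromosomes and of the length trend were chosen after the data were seen.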

Additional observations from a re-analysis of the deposited data

Results flagged for a closer look

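The genotype effect differed in sign between untreated and OxLDL-treated cells for 13 of the genes reported here, each called in both comparisons and by the test of the difference. Values are the genotype difference with OxLDL minus that in untreated cells, on the log2 scale. Immune genes that rose in untreated R150X cells and fell with OxLDL were Il1b at -2.28, the platelet chemokine Ppbp at -3.86, the platelet integrin chain Itga2b at -2.22 and the class II genes H2-Eb1 at -1.45, Cd74 at -1.39 and H2-Aa at -1.33. The same held with smaller differences for the protease Ctss (-0.654), the microsomal transferase Mgst1 (-0.546), Csf1r (-0.497) and Lyz2 (-0.383). With the length trend removed the log2 fold change of Lyz2 in untreated cells was -0.0858, so its rise there depended on that trend. Genes that fell in untreated R150X cells and rose with OxLDL were the ferroxidase Cp at 0.631, the tRNA synthetase Eprs at 0.431 and the mannose receptor Mrc1 at 0.345. For Il1b the OxLDL-treated levels were 2.501 ± 0.235 CPM in WT and 1.095 ± 0.518 CPM in R150X, and for Cd74 they were 90.9 ± 3.86 and 78.1 ± 4.85 CPM.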

How the results depend on the processing

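The count of genes called stayed within 1.5 times the 5056 of the main analysis under every alternative run: DESeq2 4616, stricter filter 5036, no filter 4922, library total 5120, upper quartile 5003, the 6 libraries alone 4522, chromosomes X and Y left out 4877 and length trend removed 4333. Leaving out 1 library gave 3887 to 4835. What moved among these counts was the direction: 1849 genes rose with scaling by library total, 36.1% of those called. With the length trend removed and R150X replicate 1 left out, 1665 rose. Calls of named genes moved too. With the trend removed alone, 24 kept their sign but lost their call and 17 gained a call. With both steps these counts were 35 and 15. With both steps, or with the trend removed alone, 9 named genes changed sign, counting only genes called before or after the change. The trend removal gave Bst2 -0.0505, C1qb -0.164, Fcer1g -0.028, Hmox1 -0.155, Lyz2 -0.0858, Rplp0 -0.14 and mt-Cytb -0.0879, and both steps gave Apoe -0.173, Bst2 -0.0892, C1qb -0.191, Fcer1g -0.00908, Hmox1 -0.154, Lyz2 -0.0674, Pkm -0.00361, Rplp0 -0.152 and mt-Cytb -0.0202; the cause was not tested.

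The replicate numbers shared by the groups were not taken as pairs, and correlations this weak cannot decide whether they are. Over 10609 genes the correlations of same-numbered deviations were 0.042, 0.118 and -0.03. With a replicate block 5355 genes were called, 2942 higher and 2413 lower. WT replicates 1 and 2 correlated best with their own number, while WT replicate 3 correlated best with R150X replicate 1 (0.071). Correlations between different numbers ran from -0.118 to 0.071. Genes under 1 CPM were called in 10.4% of cases, and smaller differences there were not detectable at this depth.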

Other observations

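Gene classes differed in direction. Of 332 tested lincRNA genes 16 rose and 60 fell (22.9% called). Of 358 antisense genes 18 rose and 36 fell (15.1%), whereas 77 of 634 processed pseudogenes rose and 26 fell (16.2%). Over all genes tested 33.0% were called, 18.1% higher and 14.8% lower. Direction also went with level and transcript length, and the classes were not matched for either. Without strand information antisense genes and their partners could not be told apart, and pseudogenes may share reads with their parent genes. The share of genes called ran from 29.8% to 35.2% over the autosomes, and it was 34.2% on chromosome X. Of 7 tested genes on chromosome Y 5 fell.

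Cell cycle and DNA replication genes were called in 7 of 32 cases (21.9%, against 33.0% of all genes tested), 3 higher and 4 lower (8 lower with scaling by library total alone). Pcna, the replication clamp, rose from 199.96 ± 2.903 to 298 ± 18.3 CPM, while the proliferation marker Mki67 was at 80.7, 88.9 and 83.6 CPM in WT and 47.1, 63.1 and 61.97 CPM in R150X and fell. Ccnd2, a cyclin that drives entry into the cycle, fell from 230.5 ± 5.85 to 143 ± 12.7 CPM. Aminoacyl-tRNA synthetases rose in 3 of 20 cases and fell in 3 (1 and 5 with scaling by library total alone), and prostaglandin and leukotriene genes rose in 5 of 17 (3 with scaling by library total alone) and fell in 1. The share called in both groups was near that of all genes tested. Alox5ap, the 5-lipoxygenase-activating protein, rose from 46.7 ± 1.07 to 63.9 ± 10.8 CPM, with R150X replicate 1 the highest library.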
